A study of Mus musculus with 32 samples.

Results

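The genes of 9 transcription factors that direct myeloid differentiation were followed in mouse progenitor cells: Spi1, Cebpa, Cebpb, Cebpd, Cebpe, Gfi1, Gfi1b, Runx1 and Myb. They were chosen by name, as the PU.1, C/EBP, GFI1, RUNX1 and MYB genes, and each symbol matched 1 of the 55487 gene identifiers of the deposited tables. All 9 passed the filter on low counts, which left 14869 genes tested. The cells were hematopoietic progenitors from fetal liver, immortalised with ER-HOXB8, a HOXB8 protein fused to an estrogen receptor domain that holds progenitors in a dividing state while estradiol is present. Mutant cells (line hi-77-/-, genotype Gata2 -77-/-) had lost an enhancer that lies upstream of Gata2 on both alleles, and wild-type cells (line hi-77+/+) had kept it. Mutant and wild-type cells were each given vehicle, IFNg at 1 ng per ml, Pam3CSK4 at 100 ng per ml, or the 2 agonists together, for 4 h, with 4 libraries in each of the 8 groups. IFNg is the macrophage-activating interferon, and Pam3CSK4 is a lipopeptide that activates Toll-like receptor 2 with its partner receptor. All groups shared the ER-HOXB8 fusion, stem cell factor in the medium, estradiol at 1 uM and a drug that selects for the transgene. Each genotype was a single line. Whether the 4 libraries of a group stem from separate cultures is not stated in the labels, and the p-values therefore cover no more than the spread among these 32 samples, which may be technical.

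PU.1, the product of Spi1, is an ETS factor needed for the whole myeloid branch, and its dose is known to bear on the choice between macrophages and other fates. C/EBP proteins are leucine-zipper factors: C/EBP alpha opens the granulocyte-monocyte path, C/EBP epsilon drives the late granule program, and C/EBP beta and delta are known for inflammatory and emergency responses. GFI1 and GFI1B are zinc-finger repressors that recruit LSD1 and CoREST, GFI1 mainly in neutrophil and lymphoid precursors and GFI1B in erythroid and megakaryocytic cells, while RUNX1 and MYB keep progenitors in being.

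Gata2, the gene whose enhancer was deleted, averaged 7.52 ± 0.679 CPM in mutant and 43.4 ± 8.27 CPM in wild-type vehicle libraries (SD, n = 4 each), and no library of the mutant groups reached any wild-type library. CPM are expected counts scaled to library size with TMM factors. Library totals lay between 44.18 M and 71.42 M expected counts. The 6 progenitor markers together, among them Kit, Cd34 and Flt3, summed to 2460 to 2780 CPM in mutant and 1920 to 2120 CPM in wild-type libraries, and none of them was at 0. With vehicle 4 of the 6 were higher in mutant cells (24.4% of all genes) and 1, Kit, was lower (29.3%), by edgeR at an adjusted p under 0.05. Markers of other cells differed between the vehicle groups: the 8 mast and basophil markers summed to 114 to 124 CPM in mutant against 643 to 685 CPM in wild-type libraries, the 8 erythroid markers to 5.66 to 6.44 against 100 to 114 CPM, the 7 megakaryocyte markers to 15.9 to 18.1 against 22.4 to 26.7 CPM, the 8 early B lymphoid markers to 267 to 278 against 37.6 to 43.7 CPM and the 6 stromal markers to 12.2 to 13 against 31.2 to 39.8 CPM. The megakaryocyte sum does not describe each of its genes. Of the 6 tested, 3 were higher (24.4% of all genes) and 3 lower (29.3%) in mutant vehicle libraries, by edgeR at an adjusted p under 0.05. Fcer1a was at 0 in both vehicle groups, Mcpt4 and Tpsb2 were at 0 in mutant vehicle libraries, and Ppbp and Col3a1 were at 0 in both vehicle groups, Col1a1 in the mutant and Cdh5 in the wild-type one. The T and NK and the hepatocyte markers summed to at most 0.568 CPM in any library. These shifts move with every difference between the genotypes given here, and their part in those differences was not tested. In such bulk RNA, fewer cells of a type and less RNA per cell cannot be told apart. The share of counts in structural RNA (mitochondrial, ribosomal, small nuclear, small nucleolar and similar RNAs) averaged 25.8 ± 1.78, 21.1 ± 3.89, 27.3 ± 2.12 and 23 ± 4.78% in mutant vehicle, IFNg, Pam3CSK4 and combination libraries. In wild-type cells the shares were 24 ± 4.17, 15.9 ± 1.87, 14.8 ± 1.47 and 13.6 ± 0.612% in the same order. The wild-type vehicle libraries thus stood apart from the treated ones. Under each agonist the mean share was higher in mutant cells, so it moved with genotype as well as with treatment. Values fitted with this share as a covariate are given where they changed a call of one of the 9 genes described below. By this share the mutant combination libraries fell into pairs. Libraries 1 and 2 held 18.9 and 18.8%, and libraries 3 and 4 held 27.8 and 26.3%. The CPM of Spi1, Cebpa, Cebpd, Gfi1 and Myb split by the same pairs, while those of Cebpb, Cebpe, Gfi1b and Runx1 did not. The labels name no such pairs, and the p-values treat the 4 libraries as separate samples.

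Promoters of 6 of the 9 genes (Cebpa, Cebpb, Gfi1, Gfi1b, Runx1 and Myb) were in the RefSeq promoter table of build GRCm38.p6. Those of Gfi1b, which had the largest Pam3CSK4 response of the 9 genes in mutant cells, and of Runx1, whose transcripts start at a distal or a proximal promoter, are shown. Each is the stretch just before the start site, 5′ to 3′ on the strand of the gene, without bases that the GENCODE annotation places in an exon of the gene, and capitals mark motif matches.
Gfi1b, chr2:28621983-28622232, minus strand: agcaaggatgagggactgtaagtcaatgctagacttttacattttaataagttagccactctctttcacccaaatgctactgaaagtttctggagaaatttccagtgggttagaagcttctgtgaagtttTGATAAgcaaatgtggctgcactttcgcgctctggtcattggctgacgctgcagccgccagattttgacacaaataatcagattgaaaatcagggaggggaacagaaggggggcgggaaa
Runx1 distal promoter, chr16:92826150-92826324, minus strand: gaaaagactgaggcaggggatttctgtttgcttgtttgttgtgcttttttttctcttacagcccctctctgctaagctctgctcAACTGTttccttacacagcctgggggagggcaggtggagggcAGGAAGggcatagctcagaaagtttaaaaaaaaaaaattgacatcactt
Runx1 proximal promoter, chr16:92697330-92697579, minus strand: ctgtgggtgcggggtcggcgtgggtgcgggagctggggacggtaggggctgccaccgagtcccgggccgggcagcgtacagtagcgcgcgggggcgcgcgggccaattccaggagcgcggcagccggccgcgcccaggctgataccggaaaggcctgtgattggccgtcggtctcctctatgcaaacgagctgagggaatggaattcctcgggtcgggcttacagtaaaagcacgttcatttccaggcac
Motifs were searched on both strands over the 250 bases before each start. The Gfi1b promoter held a GATA motif (GATA preceded by A or T and followed by A or G) at -120, a motif that was in 26.5% of 32851 promoters. The distal Runx1 promoter held the ETS motif AGGAAG at -124 (29.5% of promoters) and the MYB motif AACTGT or AACTGC at -166 and, in bases not printed, at -26 (21.2% of promoters). None of the 6 motifs searched, which also included a RUNX motif (TGTGGT, 14.0% of promoters), a C/EBP motif (TTGCNNAA or TTGNNCAA, 12.4%) and the kappaB motif (2.82%), was found in the proximal Runx1 promoter or in those of Cebpa, Cebpb and Myb. The Gfi1 promoters, which are not printed, also held matches. The one with its start at 107725805 held a C/EBP motif at -143 and a MYB motif at -137. The one with its start at 107724343 held the ETS motif at -108. Positions count back from the RefSeq start, and a match describes these letters only.

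Levels of the 9 genes were compared within a library in TPM, which is scaled by transcript length. Myb was the highest of the 9 in all 8 groups, at 66.2 ± 8.35 TPM in mutant and 58.8 ± 12.2 TPM in wild-type vehicle libraries. In mutant vehicle libraries the order below it was Cebpa (9.04 ± 0.662 TPM), Spi1 (6.82 ± 0.564), Gfi1 (6.30 ± 0.655), Gfi1b (3.64 ± 0.389), Runx1 (0.858 ± 0.123), Cebpb (0.773 ± 0.146), Cebpd (0.348 ± 0.0727) and Cebpe (0.225 ± 0.0686). Neighbouring ranges overlapped between Spi1 and Gfi1, Runx1 and Cebpb, and Cebpd and Cebpe. In wild-type vehicle libraries the order was Cebpa (13.1 ± 1.96 TPM), Gfi1 (9.49 ± 1.63), Spi1 (7.10 ± 1.35), Cebpe (4.21 ± 0.648), Gfi1b (3.85 ± 0.788), Cebpb (0.732 ± 0.173), Runx1 (0.675 ± 0.222) and Cebpd (0.450 ± 0.0744). There the ranges of Gfi1 and Spi1, of Cebpe and Gfi1b, and of Cebpb, Runx1 and Cebpd as neighbours overlapped. Gfi1b moved to rank 2 in mutant Pam3CSK4 libraries, at 8.82 ± 1.01 TPM, with Spi1 (7.56 ± 0.701 TPM) next and overlapping it.

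**Figure D1:**
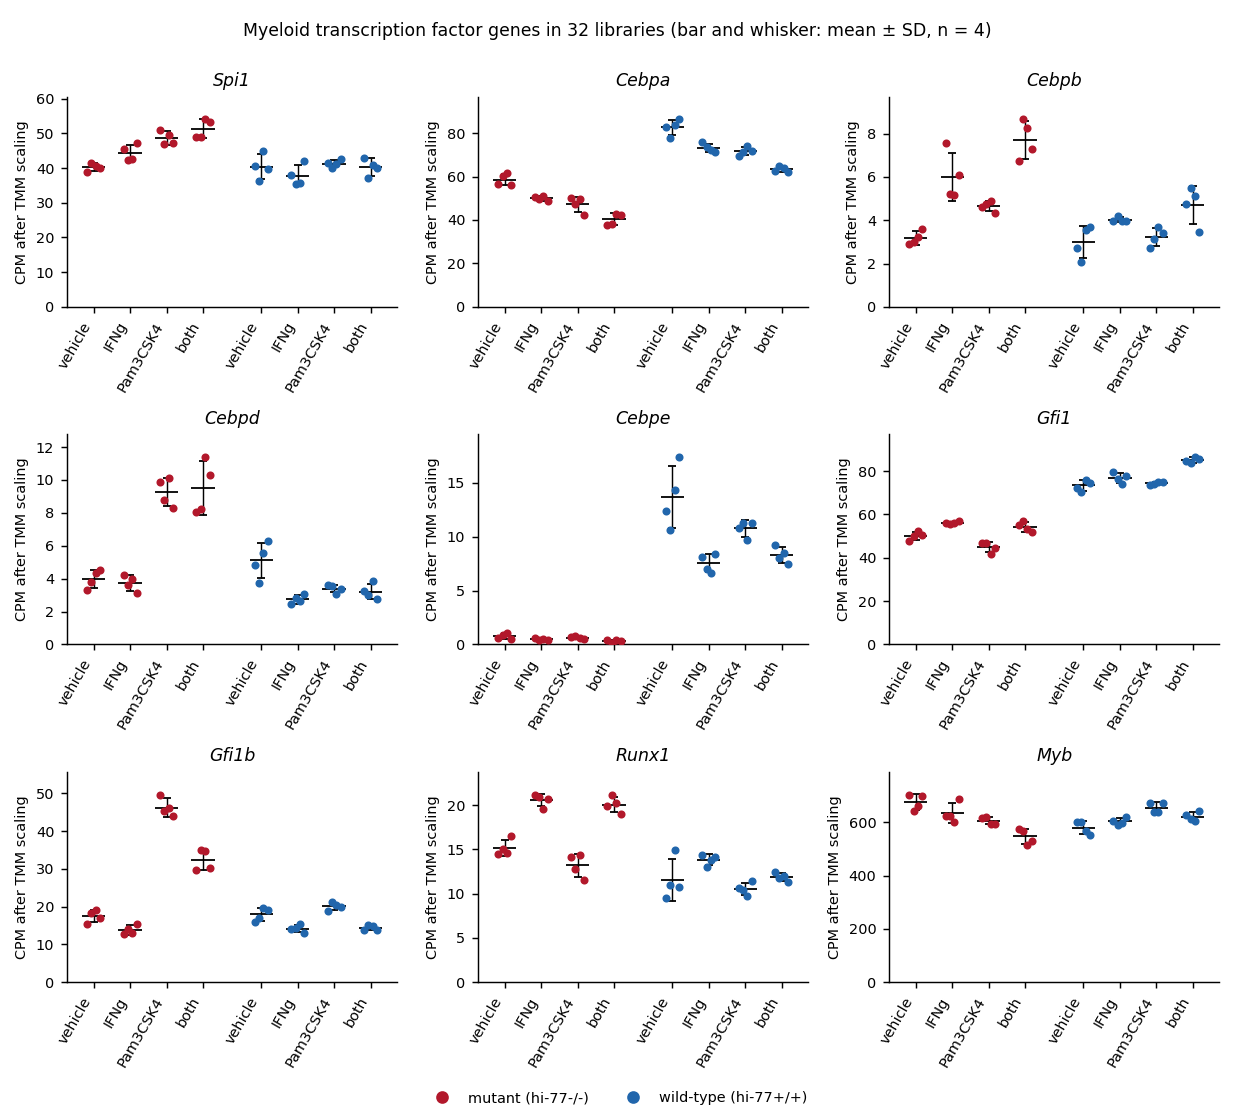
CPM after TMM scaling (vertical axes, each from 0) of the 9 genes in 32 libraries, with 1 point per library and the mean ± SD of each group. Gfi1b in mutant Pam3CSK4 libraries lies at 43.9 to 49.7 CPM, above every library of the other groups, and Cebpe stays at or below 1.08 CPM in all mutant libraries.

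How the factors differed between the genotypes, unstimulated and under each agonist, was compared first. With vehicle, mutant cells had less RNA of Cebpe, Cebpa, Gfi1 and Cebpd and more of Myb and Runx1. A gene was called where the adjusted p of the edgeR quasi-likelihood test was under 0.05. With vehicle 6 of the 9 genes were called, where 53.7% of all tested genes were, with 2 higher (24.4% of all genes) and 4 lower (29.3%). With IFNg 7 were called (53.1% of all genes), with 4 higher (25.7%) and 3 lower (27.4%). With Pam3CSK4 all 9 were called (65.6% of all genes), with 5 higher (32.1%) and 4 lower (33.5%). With both agonists all 9 were again called (60.2% of all genes), with 5 higher (30.5%) and 4 lower (29.7%). The median absolute log2 fold change of the 9 genes was 0.35, 0.45, 0.60 and 0.71 with vehicle, IFNg, Pam3CSK4 and both agonists, against 0.24, 0.23, 0.33 and 0.28 over all genes. Cebpa, Cebpe and Gfi1 were lower and Runx1 higher in mutant cells under all 4 treatments. Cebpd changed side, from lower with vehicle to higher with each agonist, and Myb changed side the other way, to lower with Pam3CSK4 and both agonists. The Cebpd call with vehicle was lost in 6 of the alternative fits. For Myb with Pam3CSK4 the sign turned again with the structural RNA share as covariate (0.07).

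**Figure D2:**
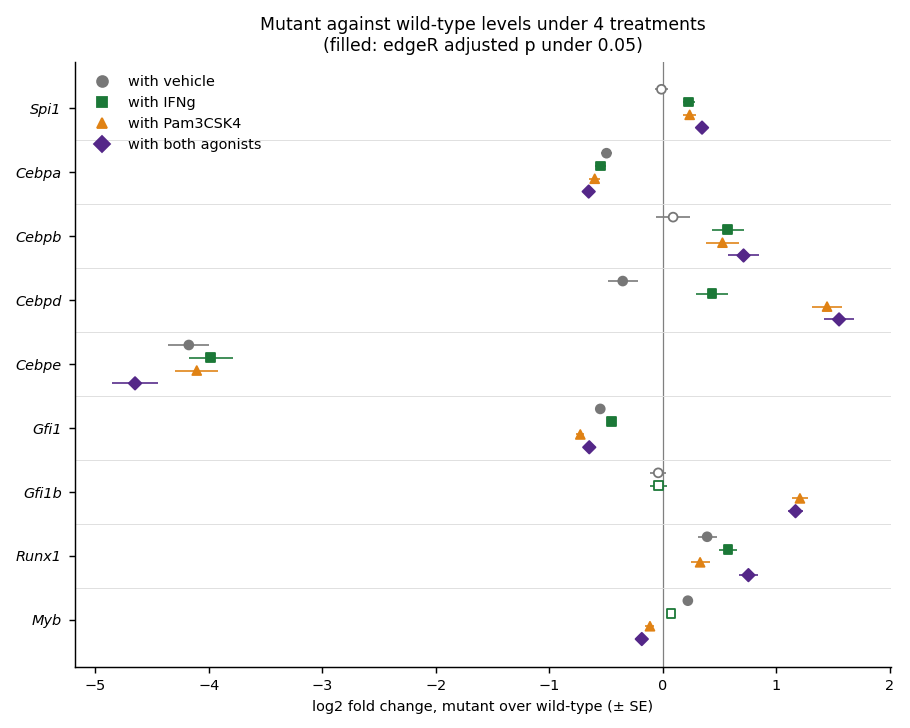
Log2 fold change of mutant over wild-type (horizontal axis, ± SE) for each gene under the 4 treatments, filled where the edgeR adjusted p was under 0.05. Cebpe lies between -4.65 and -3.98, while Gfi1b lies at -0.04 with vehicle and at 1.21 with Pam3CSK4.

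Responses to the agonists were compared within each genotype, where Cebpa fell and Cebpb rose with IFNg in both, and Gfi1b and Cebpd rose with Pam3CSK4 in mutant cells. The 3 responses of a genotype share its vehicle libraries. In mutant cells IFNg changed 7 of the 9 genes (33.2% of all genes were called), 4 up (18.3%) and 3 down (14.9%). Pam3CSK4 changed 7 (24.3%), 4 up (11.5%) and 3 down (12.8%), and both agonists changed all 9 (43.8%), 6 up (23.7%) and 3 down (20.1%). In wild-type cells IFNg changed 6 genes (35.4%), 2 up (17.8%) and 4 down (17.6%). Pam3CSK4 changed 3 (22.0%), 1 up (10.4%) and 2 down (11.7%), and both agonists changed 7 (43.7%), 3 up (21.2%) and 4 down (22.4%). When the share of structural RNA entered the edgeR model, the wild-type counts were 3 genes with IFNg, 0 with Pam3CSK4 (0 at an unadjusted p under 0.05) and 4 with both agonists. DESeq2, without that share, called 4 genes with Pam3CSK4 in wild-type cells, the same 3 and Cebpe. The response itself differed between the genotypes, mutant minus wild-type, for 1 gene with IFNg (1.65% of all genes), which was higher (0.827% higher and 0.82% lower over all genes). With Pam3CSK4 it differed for 5 genes (26.6%), 3 higher (14.3%) and 2 lower (12.3%). With both agonists it differed for 6 (15.8%), 5 higher (8.8%) and 1 lower (6.99%).

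**Figure D3:**
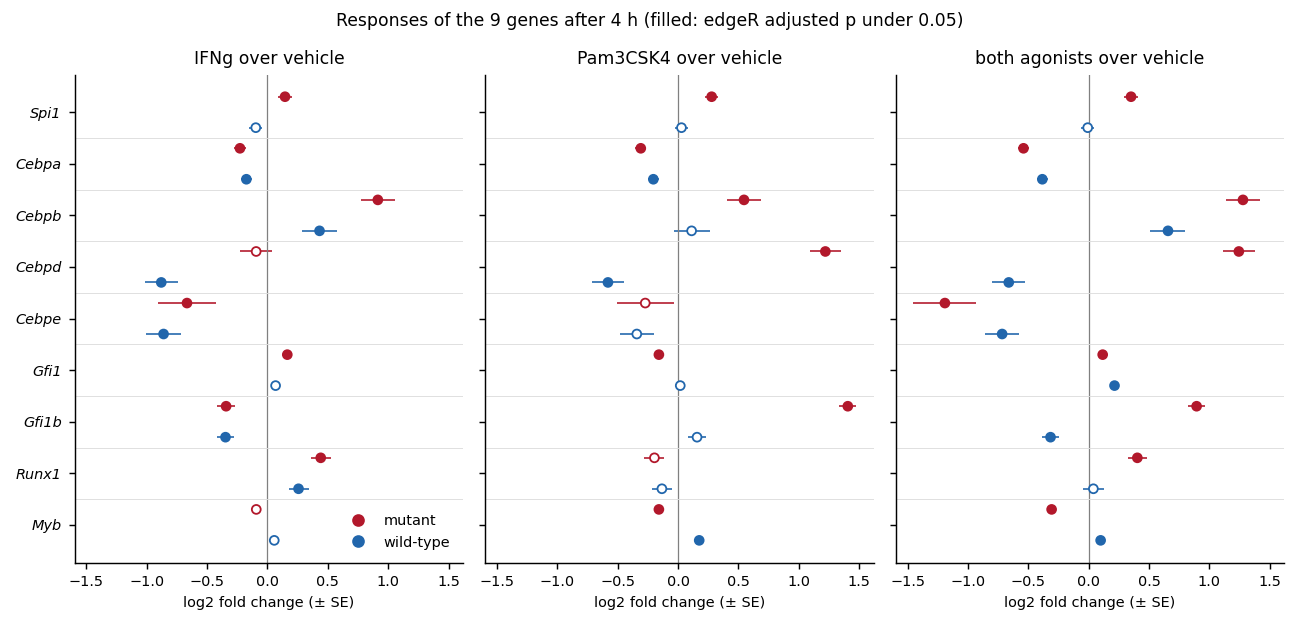
Log2 fold change over vehicle (horizontal axes, ± SE) with IFNg, Pam3CSK4 or both agonists, mutant cells above wild-type cells for each gene, filled where the edgeR adjusted p was under 0.05. With Pam3CSK4, Gfi1b and Cebpd lie at 1.41 and 1.22 in mutant cells and at 0.16 and -0.58 in wild-type cells.

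Spi1 (ENSMUSG00000002111.8, chromosome 2, 91082390 to 91115756, plus strand of mm10) rose with each agonist in mutant cells, and none of its wild-type responses was called. It lay at 38.8 to 41.5, 42.3 to 47.1, 46.9 to 51.0 and 48.9 to 54.0 CPM in mutant libraries with vehicle, IFNg, Pam3CSK4 and both agonists. The wild-type ranges were 36.3 to 45, 35.3 to 42.1, 40.1 to 42.5 and 37.0 to 43.0 CPM. In mutant cells no treated library overlapped the vehicle libraries, and in wild-type cells all treated groups did. The mutant changes were 0.15 ± 0.06 with IFNg (edgeR adjusted p = 0.0408), 0.28 ± 0.06 with Pam3CSK4 (0.00021) and 0.35 ± 0.06 with both (2.0e-06). The IFNg call was lost without any 1 of mutant IFNg libraries 1 and 4 and mutant vehicle libraries 1, 3 and 4 (0.12 to 0.15, adjusted p 0.0637 to 0.146), with RLE factors (0.13, 0.068), in DESeq2 (0.13, 0.0704) and with the covariate (0.15, 0.0531). The response differed between genotypes for Pam3CSK4 (0.25 ± 0.08, adjusted p = 0.0159, and 0.157 with the covariate) and for both agonists (0.36 ± 0.08, 0.0014). For IFNg the difference was 0.24 ± 0.08 and was not called (0.122). It was called without wild-type vehicle library 2 (0.29, 0.0302) or wild-type IFNg library 4 (0.30, 0.034). In the same fits the wild-type IFNg response was called too, at -0.147 (0.0403) and -0.155 (0.0323), against -0.10 ± 0.06 (0.178) with all libraries. Mutant cells were higher than wild-type cells by 0.23 ± 0.06 with IFNg (0.00059), 0.24 ± 0.06 with Pam3CSK4 (0.0003) and 0.35 ± 0.06 with both (1.5e-06), against -0.01 ± 0.06 with vehicle (0.886).

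Cebpa (ENSMUSG00000034957.10, chromosome 7, 35119293 to 35121928, plus strand) was lower in mutant cells and fell further with each agonist in both genotypes. Mutant libraries held 56.4, 60.3, 61.5 and 56.3 CPM with vehicle, 50.5, 49.8, 51.1 and 48.6 with IFNg, 50, 47.2, 49.5 and 42.2 with Pam3CSK4 and 37.7, 38.2, 42.9 and 42.5 with both agonists. Wild-type libraries held 82.8, 77.6, 83.7 and 86.3 CPM with vehicle, 75.8, 73.5, 72.1 and 71.1 with IFNg, 69.6, 71.3, 74.1 and 71.7 with Pam3CSK4 and 62.4, 64.7, 63.7 and 62.3 with both. Every mutant library lay below every wild-type library, and no treated library reached the vehicle libraries of its genotype. Mutant cells were lower with vehicle by a log2 fold change of -0.50 ± 0.05 (edgeR adjusted p = 1.3e-11), and with both agonists by -0.65 ± 0.05 (1.3e-14). The combined treatment changed Cebpa by -0.54 ± 0.05 in mutant cells (3.8e-12) and by -0.38 ± 0.05 in wild-type cells (1.3e-08). The single agonists gave -0.23 ± 0.05 and -0.31 ± 0.05 in mutant cells for IFNg and Pam3CSK4 (adjusted p = 0.00014 and 2.4e-06), and -0.18 ± 0.05 and -0.21 ± 0.05 in wild-type cells (0.0025 and 0.0015). Both single wild-type calls were lost with the covariate (-0.06 and -0.07, adjusted p 0.429 and 0.690), and the combined response moved to -0.24 (0.000734). Both single calls were also lost without wild-type vehicle libraries 1 and 4 (-0.14 and -0.17, adjusted p 0.0521 and 0.0659). The responses of the genotypes differed by -0.10 ± 0.06 for Pam3CSK4 (0.245) and -0.16 ± 0.06 for both agonists (0.093), neither called. With the covariate both differences were called (-0.26 at 0.00947 and -0.27 at 0.00228), and in DESeq2 the one for both agonists was (-0.17, 0.0478).

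Cebpe (ENSMUSG00000052435.7, chromosome 14, 54710360 to 54712174, minus strand) showed the widest gap between the genotypes among the 9 genes. Mutant libraries held 0.600, 0.854, 1.08 and 0.498 CPM with vehicle, 0.579, 0.378, 0.485 and 0.434 with IFNg, 0.698, 0.759, 0.558 and 0.465 with Pam3CSK4 and 0.373, 0.167, 0.456 and 0.343 with both. Wild-type libraries held 12.4, 10.6, 14.3 and 17.4 CPM with vehicle, 8.09, 6.98, 6.64 and 8.36 with IFNg, 10.8, 11.3, 9.65 and 11.3 with Pam3CSK4 and 9.2, 8.02, 8.48 and 7.5 with both. The lowest wild-type library was above the highest mutant library in every treatment. The fold change with vehicle was -4.18 ± 0.18 on the log2 scale (edgeR adjusted p = 3.0e-19), an 18.1-fold lower level in mutant cells, and it lay between -4.65 and -3.98 under the agonists. The counts behind the mutant values were small, with 11 expected counts in the lowest library, so the mutant response to IFNg is imprecise. That response was -0.67 ± 0.24 (adjusted p = 0.0339) and lost its call without any 1 of mutant IFNg libraries 2, 3 and 4 and mutant vehicle libraries 2 and 3 (-0.68 to -0.43, adjusted p 0.0612 to 0.211), without the filter on low counts (-0.67, 0.109), in the fit of the contrast's groups alone (-0.68, 0.0515) and with the covariate (-0.49, 0.133). In wild-type cells IFNg changed Cebpe by -0.86 ± 0.14 (1.7e-05, and -0.53 at 0.0579 with the covariate) and both agonists by -0.72 ± 0.14 (0.00012, and -0.30 at 0.371 with the covariate). Both agonists changed it by -1.19 ± 0.26 in mutant cells (0.00034). Pam3CSK4 gave -0.27 ± 0.24 in mutant and -0.34 ± 0.14 in wild-type cells, and neither passed the test (0.460 and 0.0793). In wild-type cells the 8 erythroid markers summed to 64.7 to 76.3 CPM with IFNg, against 100 to 114 CPM with vehicle. Mast and basophil markers summed to 585 to 638 against 643 to 685 CPM, and stromal markers to 26.2 to 28.1 against 31.2 to 39.8 CPM. The progenitor, megakaryocyte and early B lymphoid sums with IFNg overlapped those with vehicle. The part of these shifts in the fall of Cebpe was not tested.

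Cebpb (ENSMUSG00000056501.3, chromosome 2, 167688915 to 167690418, plus strand) rose with IFNg in both genotypes and was scarce throughout. Mutant libraries held 2.89, 3.01, 3.21 and 3.61 CPM with vehicle, 7.56, 5.21, 5.16 and 6.08 with IFNg, 4.61, 4.76, 4.88 and 4.34 with Pam3CSK4 and 6.73, 8.66, 8.24 and 7.27 with both. Wild-type libraries held 2.72, 2.07, 3.54 and 3.67 CPM with vehicle, 3.99, 4.20, 3.96 and 3.97 with IFNg, 2.71, 3.12, 3.71 and 3.40 with Pam3CSK4 and 4.73, 5.48, 5.13 and 3.45 with both. The vehicle groups of the genotypes overlapped, and the mutant libraries lay above the wild-type ones under each agonist. IFNg changed Cebpb by 0.91 ± 0.14 in mutant (edgeR adjusted p = 4.0e-06) and by 0.43 ± 0.15 in wild-type cells (0.0208). The wild-type call was lost without wild-type vehicle library 1 or 2 (0.28 to 0.39, adjusted p 0.0597 to 0.122). It was also lost in the fit of the contrast's groups alone (0.43, 0.0654). Both agonists gave 1.28 ± 0.14 in mutant (3.0e-09) and 0.66 ± 0.15 in wild-type cells (0.00039), and the difference of these responses was 0.62 ± 0.20 (0.0329). That difference lost its call in 7 fits without a single library (mutant combination library 2 or 3, mutant vehicle library 1 or 2, wild-type combination library 4, wild-type vehicle library 3 or 4), at 0.50 to 0.60 and adjusted p 0.0560 to 0.0947. It was also lost without the filter on low counts (0.60, 0.0766), in the fit of the contrast's groups alone (0.58, 0.104), without wild-type vehicle libraries 1 and 4 (0.53, 0.133) and with the covariate (0.50, 0.183). Mutant cells were higher than wild-type cells by 0.58 ± 0.14 with IFNg (0.00073), 0.53 ± 0.14 with Pam3CSK4 (0.0019, and 0.33 at 0.241 with the covariate) and 0.71 ± 0.14 with both (3.5e-05), against 0.09 ± 0.15 with vehicle (0.635). Pam3CSK4 raised Cebpb in mutant cells by 0.55 ± 0.14 (0.0047), against 0.11 ± 0.15 in wild-type cells (0.641), and that difference was not called (0.43 ± 0.21, 0.123). Of the 1504 exonic bases of Cebpb, 312 are shared with exons of Tmem189 on the opposite strand, and no source used here gives the strand setting of the counting, so reads in that stretch cannot be told apart. Tmem189 itself lay between 24.7 and 30.3 CPM in the group means and changed by 0.12 ± 0.04 with IFNg in mutant cells (0.0228).

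Cebpd (ENSMUSG00000071637.5, chromosome 16, 15887286 to 15891031, plus strand) went in opposite directions with Pam3CSK4 in the 2 genotypes. Mutant libraries held 3.34, 3.78, 4.33 and 4.50 CPM with vehicle, 4.23, 3.64, 3.95 and 3.12 with IFNg, 9.88, 8.81, 10.1 and 8.32 with Pam3CSK4 and 8.05, 8.23, 11.4 and 10.3 with both. Wild-type libraries held 4.83, 3.76, 5.59 and 6.27 CPM with vehicle, 2.46, 2.85, 2.63 and 3.08 with IFNg, 3.59, 3.58, 3.09 and 3.35 with Pam3CSK4 and 3.23, 3.0, 3.84 and 2.75 with both. All mutant Pam3CSK4 and combination libraries lay above all mutant vehicle libraries, while all wild-type Pam3CSK4 libraries lay below all wild-type vehicle libraries. The log2 fold change with Pam3CSK4 was 1.22 ± 0.13 in mutant (edgeR adjusted p = 3.8e-09) and -0.58 ± 0.13 in wild-type cells (0.0024). The difference was 1.80 ± 0.19 (1.2e-08) and remained called in every alternative, at 1.36 to 1.93. With both agonists Cebpd changed by 1.24 ± 0.13 in mutant (6.5e-10) and by -0.66 ± 0.13 in wild-type cells (0.00014, and -0.24 at 0.292 with the covariate). The wild-type fall with Pam3CSK4 lost its call with the covariate (-0.21, 0.726) and without both wild-type vehicle libraries of highest structural RNA share, 1 and 4 (-0.46, 0.0798). IFNg gave -0.09 ± 0.14 in mutant (0.644) and -0.88 ± 0.14 in wild-type cells (4.2e-06, and -0.55 at 0.00551 with the covariate). The difference in the IFNg response was 0.79 ± 0.19 (0.0240), but it lost its call in 7 fits without a single library (mutant IFNg library 1 or 3, mutant vehicle library 1, wild-type IFNg library 1 or 3, wild-type vehicle library 3 or 4), at 0.68 to 0.76 and adjusted p 0.0502 to 0.0763. With vehicle, where the genotypes overlapped, mutant cells differed by -0.35 ± 0.13 (0.0251), a call lost without any 1 of mutant vehicle libraries 1 and 2 and wild-type vehicle libraries 3 and 4 (-0.33 to -0.25, adjusted p 0.0586 to 0.135). That call was also lost in the fit of the contrast's groups alone (-0.33, 0.0976) and without wild-type vehicle libraries 1 and 4 (-0.23, 0.218). Under the agonists mutant cells were higher, by 0.43 ± 0.14 with IFNg (0.008, and 0.21 at 0.183 with the covariate), 1.45 ± 0.13 with Pam3CSK4 (1.2e-11, and 0.95 at 2.22e-05 with the covariate) and 1.56 ± 0.13 with both (2.4e-12). Spidr, which shares 562 of the 3746 exonic bases of Cebpd on the opposite strand, lay between 33.9 and 39.6 CPM in the group means and changed by 0.05 ± 0.04 with Pam3CSK4 in mutant cells (0.430).

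Gfi1 (ENSMUSG00000029275.18, chromosome 5, 107716657 to 107726036, minus strand) and its paralog Gfi1b (ENSMUSG00000026815.14, chromosome 2, 28609450 to 28621982, minus strand) moved apart. Gfi1 averaged 50.1 ± 1.82, 56.2 ± 0.453, 44.9 ± 2.41 and 54.3 ± 2.28 CPM in mutant cells with vehicle, IFNg, Pam3CSK4 and both agonists, and 73.4 ± 2.45, 76.9 ± 2.29, 74.3 ± 0.787 and 85.1 ± 1.26 CPM in wild-type cells (SD, n = 4 each). No mutant library reached a wild-type library. Gfi1 was lower in mutant cells by -0.55 ± 0.04 on the log2 scale with vehicle (edgeR adjusted p = 1.9e-15) and by -0.73 ± 0.04 with Pam3CSK4 (7.6e-19). Its responses were small: 0.16 ± 0.04 with IFNg (0.00045) and -0.16 ± 0.04 with Pam3CSK4 (0.0011) in mutant cells, and 0.21 ± 0.04 with both agonists in wild-type cells (7.5e-06). The combination gave 0.12 ± 0.04 in mutant cells (0.0082), where libraries overlapped and the call was lost without combination library 1 or 2 (0.09, adjusted p 0.0502 to 0.0838). That call was also lost without the filter on low counts (0.11, 0.0687) and in the fit of the contrast's groups alone (0.11, 0.052). The Pam3CSK4 response differed between genotypes by -0.18 ± 0.05 (0.0089), and by -0.11 with the covariate (0.271).

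Gfi1b showed the strongest response to Pam3CSK4 among the 9 genes, and it was seen in mutant cells. Mutant libraries held 15.5, 18.4, 19 and 17 CPM with vehicle, 12.6, 14, 13.1 and 15.4 with IFNg, 49.7, 45.3, 46.1 and 43.9 with Pam3CSK4 and 29.7, 34.9, 34.8 and 30.3 with both. Wild-type libraries held 16, 17, 19.6 and 19.1 CPM with vehicle, 14, 14.2, 15.3 and 13 with IFNg, 18.7, 21.1, 20.5 and 19.9 with Pam3CSK4 and 13.9, 15, 14.9 and 13.9 with both. The vehicle groups overlapped between genotypes, the mutant Pam3CSK4 libraries stood above all others, and the mutant combination libraries stood between them and vehicle. Pam3CSK4 raised Gfi1b by 1.41 ± 0.07 in mutant cells (2.65-fold, edgeR adjusted p = 1.5e-17), against 0.16 ± 0.07 in wild-type cells (0.112). The wild-type value was called without wild-type vehicle library 3 (0.205, 0.0386). The difference between the genotypes was 1.25 ± 0.10 (2.7e-11), at 1.2 to 1.3 over the alternatives. IFNg lowered Gfi1b in both genotypes, with log2 fold changes of -0.34 ± 0.07 in mutant (0.00028) and -0.35 ± 0.07 in wild-type cells (0.00027), and that difference was 0.01 ± 0.10 (0.997). With both agonists Gfi1b changed by 0.89 ± 0.07 in mutant (7.4e-13) and by -0.32 ± 0.07 in wild-type cells (0.00054), a difference of 1.21 ± 0.10 (5.8e-11). The mutant combination departed from the sum of the single responses by -0.17 ± 0.10 (0.553). The genotypes differed by -0.04 ± 0.07 with vehicle (0.675) and by 1.21 ± 0.07 with Pam3CSK4 (7.9e-17). Markers of erythroid cells summed to 4.70 to 6.20 CPM in mutant Pam3CSK4 and 5.66 to 6.44 CPM in mutant vehicle libraries, and megakaryocyte markers to 13.3 to 14.5 and 15.9 to 18.1 CPM. Stromal markers summed to 19.5 to 21.9 CPM in mutant Pam3CSK4 against 12.2 to 13 CPM in mutant vehicle libraries, with Col1a1 and Col3a1 at 0 in both groups and Cdh5 at 0 with Pam3CSK4, and early B lymphoid markers to 300 to 309 against 267 to 278 CPM. Their part in the rise of Gfi1b was not tested. The part of the GATA motif in the promoter printed for Gfi1b in any of these changes was not tested.

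Runx1 (ENSMUSG00000022952.17, chromosome 16, 92601466 to 92826149, minus strand) was higher in mutant cells and rose with IFNg. Mutant libraries held 14.5, 15, 14.6 and 16.5 CPM with vehicle, 21.2, 20.9, 19.6 and 20.7 with IFNg, 14.1, 12.8, 14.4 and 11.5 with Pam3CSK4 and 19.9, 21.1, 20.2 and 19.0 with both. Wild-type libraries held 9.52, 11, 14.9 and 10.7 CPM with vehicle, 14.4, 13, 13.8 and 14.1 with IFNg, 10.6, 10.4, 9.74 and 11.4 with Pam3CSK4 and 12.4, 11.8, 12 and 11.3 with both. Wild-type vehicle library 3 stood above the other vehicle libraries of its genotype and overlapped the mutant ones. Mutant cells were higher by 0.39 ± 0.08 with vehicle (edgeR adjusted p = 0.00015), which was 0.23 without wild-type vehicle libraries 1 and 4 (0.0237), and by 0.76 ± 0.08 with both agonists (1.1e-09). IFNg gave 0.44 ± 0.08 in mutant (4.7e-05) and 0.26 ± 0.08 in wild-type cells (0.0157). The wild-type value was 0.41 without vehicle library 3 (1e-05), and its call was lost without vehicle library 1 or 4 (0.18 to 0.22, adjusted p 0.0619 to 0.0941), without both (0.09, 0.469), in the fit of the contrast's groups alone (0.26, 0.145) and with the covariate (0.19, 0.233). Both agonists raised Runx1 by 0.40 ± 0.08 in mutant cells (9.8e-05), against 0.04 ± 0.08 in wild-type cells (0.745). The wild-type value was called without wild-type vehicle library 3 (0.19, 0.0199). The difference of the responses to both agonists was 0.36 ± 0.12 (0.0302). That difference lost its call in 7 fits without a single library (mutant combination library 1, 2 or 3, mutant vehicle library 1 or 3, wild-type combination library 4, wild-type vehicle library 3), at 0.21 (without wild-type vehicle library 3) to 0.36 and adjusted p 0.0506 to 0.0946. The same call was also lost without the filter on low counts (0.34, 0.0741) and in the fit of the contrast's groups alone (0.32, 0.126). Pam3CSK4 gave -0.20 ± 0.08 in mutant and -0.13 ± 0.09 in wild-type cells, and neither passed the test (0.0849 and 0.277). The mutant value was called in the fit of its own groups (-0.20, 0.0373), and the wild-type one without vehicle libraries 1 and 4 (-0.30, 0.0394).

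The mean transcript length that RSEM gives for a gene, weighted by the estimated abundance of its transcripts, shifted for Runx1 with IFNg. The transcripts listed for it are Runx1-201 of 5861 bases, which starts at the distal promoter printed for Runx1, and Runx1-202 of 4738 and Runx1-203 of 1985 bases, which start at or downstream of the proximal one. The mean length was 5648 ± 20.2 bases in mutant vehicle, 5532 ± 28.3 in IFNg, 5627 ± 34.5 in Pam3CSK4 and 5496 ± 30.4 in combination libraries. In wild-type cells the same groups had 5688 ± 32.4, 5556 ± 22.5, 5667 ± 24.8 and 5548 ± 34.4 bases. In both genotypes the IFNg and combination libraries lay below all vehicle libraries, while the Pam3CSK4 libraries overlapped them. The same pattern of lower, not overlapping lengths held with IFNg for 2.69% of 7335 genes with several transcripts in mutant and 5.62% in wild-type cells, and with both agonists for 3.74 and 6.35%. This shift was picked out after its values were seen and is given without a test, and the mean alone does not give the share of each transcript. For mutant against wild-type with vehicle, the 5 genes with several transcripts (Cebpa, Gfi1, Gfi1b, Runx1, Myb) were tested by exact two-sided permutation, where the smallest possible p is 0.0286. Gfi1b reached it, at 1697 ± 2.06 bases in mutant and 1708 ± 7.49 bases in wild-type libraries, but none of the 5 passed after adjustment (Gfi1b, Runx1 and Cebpa at 0.0952 each).

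**Figure D4:**
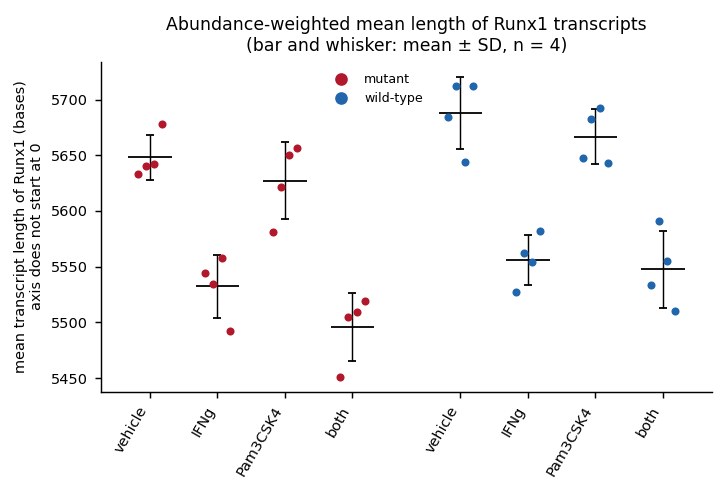
Abundance-weighted mean length of Runx1 transcripts in bases (vertical axis, not from 0), 1 point per library with the mean ± SD of each group. IFNg and combination libraries lie at 5451 to 5558 bases in mutant cells, below the vehicle libraries at 5633 to 5678 bases, and at 5510 to 5591 bases in wild-type cells, below the vehicle libraries at 5644 to 5712 bases.

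Myb (ENSMUSG00000019982.15, chromosome 10, 21124935 to 21160984, minus strand) fell with Pam3CSK4 and with both agonists in mutant cells. It lay at 644 to 705, 603 to 687, 596 to 621 and 516 to 574 CPM in mutant libraries with vehicle, IFNg, Pam3CSK4 and both agonists. The wild-type ranges were 552 to 603, 590 to 622, 638 to 674 and 605 to 642 CPM. Mutant vehicle libraries stood above wild-type vehicle libraries, and mutant combination libraries stood below wild-type combination libraries. With vehicle the mutant level was higher by 0.22 ± 0.04 (edgeR adjusted p = 1.2e-05), and with both agonists the difference was -0.18 ± 0.04 (0.00014, and -0.05 at 0.319 with the covariate). With Pam3CSK4 it was -0.11 ± 0.04 (0.0136), and it took the other sign with the covariate (0.07, 0.217). That call was also lost with RLE factors, in DESeq2 and with structural genes left out (-0.09 each). With IFNg the genotypes differed by 0.07 ± 0.04 (0.121), which was called with the covariate (0.15, 0.000221) and with structural genes left out (0.11, 0.0258). IFNg gave -0.09 ± 0.04 in mutant cells (0.069), which was called with RLE factors (-0.11, 0.0344), in DESeq2 (-0.11, 0.0285) and with the covariate (-0.16, 0.00011). Pam3CSK4 changed Myb by -0.16 ± 0.04 in mutant (0.0026) and by 0.17 ± 0.04 in wild-type cells (0.0020, and 0.04 at 0.826 with the covariate), and both agonists by -0.31 ± 0.04 in mutant (5.1e-08) and 0.10 ± 0.04 in wild-type cells (0.0411). The wild-type combination call was lost in several alternatives, among them without any 1 of wild-type combination libraries 1 and 4 and wild-type vehicle libraries 3 and 4 (0.08 to 0.09, adjusted p 0.0843 to 0.157), and its sign turned with the covariate (-0.05, 0.401). The difference in response was -0.33 ± 0.06 for Pam3CSK4 (4.3e-05, and -0.18 at 0.0257 with the covariate) and -0.41 ± 0.06 for both agonists (2.4e-06), and both were called in every alternative.

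Whether the agonists combined as the sum of their single effects on the log2 scale was tested for each gene. In mutant cells 0 of the 9 genes departed from that sum in edgeR (1 at an unadjusted p under 0.05, Gfi1) and 0 in DESeq2, beside 1.86% of all genes. In wild-type cells Cebpd alone was called (0.80 ± 0.19, edgeR adjusted p = 0.0443), beside 0.592% of all genes, and that call was lost in 12 of the 16 fits without a single wild-type library, those without any but combination library 4, IFNg library 4 and vehicle libraries 2 and 3 (0.69 to 0.83, adjusted p 0.0531 to 0.138). It was also lost without both wild-type vehicle libraries 1 and 4 (0.68, 0.314) and with the covariate (0.51, 0.479).

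Genes that work with these factors were taken from lists written with earlier results of these data known. Of the 17 granulocyte genes known as targets of C/EBP, GFI1 and PU.1, 15 were lower and 1 higher in mutant than in wild-type vehicle libraries, where 29.3% of all tested genes were lower and 24.4% higher, with a median log2 fold change of -3.09 against -0.01 over all genes. Elane, neutrophil elastase, averaged 3.16 ± 0.397 CPM in mutant and 26.7 ± 2.83 CPM in wild-type cells (-3.09 ± 0.08, edgeR adjusted p = 7.0e-27). Camp, the cathelicidin of secondary granules, averaged 0.309 ± 0.135 and 10.7 ± 1.67 CPM in the mutant and wild-type cells. Mmp8, neutrophil collagenase, was the exception, at 50.6 ± 1.39 CPM in mutant and 12.7 ± 0.894 CPM in wild-type cells. Of 13 tested monocyte and macrophage genes, 6 were higher, among them F13a1 (2.43 ± 0.05) and Ccr2 (1.15 ± 0.08), and 7 lower, among them Cx3cr1 (-2.22 ± 0.14), against the same 24.4% and 29.3% of all genes. Of 11 growth factor receptor genes, 4 were higher, among them Csf1r, the M-CSF receptor (2.97 ± 0.26), and 6 lower, among them Csf2rb, the common beta chain (-1.37 ± 0.05), and Epor, the erythropoietin receptor (-3.43 ± 0.15), again against 24.4% and 29.3% of all genes.

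The list of corepressors and degraders of the factors, which also held the inhibitors Id1 and Id2, had 16 tested genes. Of these, 3 were higher and 6 lower in mutant cells with vehicle, with a median of -0.08. Over all genes 24.4% were higher and 29.3% lower, with a median of -0.01. With IFNg 5 rose and 1 fell in each genotype, where 18.3% of all genes rose and 14.9% fell in mutant cells, and 17.8% rose and 17.6% fell in wild-type cells. Trib2, a pseudokinase that directs C/EBP alpha to degradation, averaged 26.9 ± 1.43 CPM with IFNg and 10.5 ± 0.295 CPM with vehicle in mutant cells, and 16.2 ± 2.02 and 9.85 ± 0.571 CPM with IFNg and vehicle in wild-type cells. Its log2 fold changes were 1.35 ± 0.07 (edgeR adjusted p = 1.9e-18) and 0.72 ± 0.07 (1.5e-10) in mutant and wild-type cells. Id1, an inhibitor of helix-loop-helix factors, rose by 1.58 ± 0.09 in mutant and 1.08 ± 0.09 in wild-type cells. Kdm1a, which encodes the demethylase LSD1, was higher by 0.11 ± 0.04 in mutant vehicle libraries (0.0145). Of 15 coactivators and partners, 6 were higher (24.4% of all genes) and 4 lower (29.3%) in mutant cells with vehicle. Irf8, the partner of PU.1 in monocyte commitment, was higher by 1.28 ± 0.05 and Ets1, an ETS relative, lower by -2.02 ± 0.09. With IFNg Irf8 changed by 3.43 ± 0.05 in mutant and 4.05 ± 0.05 in wild-type cells, and Egr2 by 3.39 ± 0.09 and 2.95 ± 0.09 in mutant and wild-type cells. Of 9 tested family relatives, 4 were lower with vehicle (29.3% of all genes) and the other 5 were not called. The lower ones included Cbfb, the binding partner of RUNX1 (-0.25 ± 0.04). Of 10 MYB targets, mutant cells with vehicle had 7 higher (24.4% of all genes) and 2 lower (29.3%), with a median of 0.15 against -0.01 over all genes and a median absolute change of 0.16 against 0.24.

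For the 5 genes whose 8 group means spanned at least 1 on the log2 scale, the genes of most similar pattern were found by Pearson's r over those 8 means, which share the libraries, as a description. P2rx1, which encodes an ATP-gated ion channel, was nearest to Gfi1b (r = 0.993). It averaged 28.8 ± 1.19, 24.7 ± 0.787, 71.7 ± 2.56 and 49.2 ± 2.33 CPM in mutant cells with vehicle, IFNg, Pam3CSK4 and both agonists, and 27.5 ± 1.20, 22.1 ± 0.690, 30.6 ± 1.15 and 23.3 ± 0.696 CPM in wild-type cells. Rffl (0.983) and Pip4k2a (0.974) followed. Nab2, a corepressor of EGR factors, was nearest to Cebpb (0.994), followed by Ncbp3 and Lmo2 (0.984 each). Among the 3 nearest to Cebpe were Ptpru and Epor (0.998 each). The nearest to Cebpa were Svip (0.994), Slc8b1 (0.989) and Pced1b (0.986), and to Cebpd Bet1l (0.981), Tbc1d10a (0.971) and Tasp1 (0.956). Bet1l itself had group means of only 15.5 to 18.1 CPM.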

How the data were processed

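RNA was measured in 32 libraries of 2 genotypes and 4 treatments, grouped by the labels, 4 libraries a group. A stranded total RNA kit with ribosomal RNA removal was used, per the labels' protocols. Per the submitters' processing notes, the authors used STAR 2.5.2b, RSEM 1.3.0 and the mouse build mm10. Not given in the sources used here are the annotation release, read filters and the strand setting of the counting. Expected counts, which RSEM estimates per gene, were read as deposited and rounded, since 11.1% of non-zero values were not whole. The deposited TPM values served only for the order of genes within a library, and the gene lengths deposited with them for mean transcript length. The FPKM columns were not used here.

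Of 55487 identifiers, 55394 matched GENCODE vM21 with the version ignored, the source of symbols and coordinates. filterByExpr of edgeR left 14869 genes, libraries were scaled by TMM, and the 32 libraries entered a single robust quasi-likelihood model of group means (24 residual degrees of freedom). From it 15 contrasts were tested, with Benjamini-Hochberg adjustment over all genes within each and a threshold of 0.05. The fit was tested on simulated data. Levels are mean ± SD of CPM and fold changes are log2 ± SE. The alternatives were DESeq2, RLE factors, no filter, the contrast's groups alone, a replicate block, the structural RNA share as covariate, structural genes left out and each library left out. A further one, both wild-type vehicle libraries of highest structural RNA share left out, was chosen after seeing the data. The members and lists were chosen with earlier results of these data known. Named by rule were all members, Gata2, up to 3 higher and 3 lower genes of each list with the lowest adjusted p at 1 CPM or more (2 and 2 in each response), and the 3 genes most alike of at least 5 CPM, of which 1 is not reported here. Tmem189 and Spidr were named for their overlap. No table of protein sequences was used here. Software was R 4.3.3, edgeR 4.0.16, limma 3.58.1, DESeq2 1.42.0, matplotlib 3.10.9, scipy 1.17.1, numpy 2.4.6, pandas 2.3.3 and Python 3.11.15.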

Additional observations from a re-analysis of the deposited data

Results flagged for a closer look

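The test of the difference in response between genotypes, mutant minus wild-type on the log2 scale in edgeR, passed for 12 values. For Pam3CSK4 these were Cebpd (1.80, adjusted p = 1.2e-08), Gfi1b (1.25, 2.7e-11), Spi1 (0.25, 0.0159), Gfi1 (-0.18, 0.0089) and Myb (-0.33, 4.3e-05). For both agonists they were Cebpd (1.91, 2.9e-09), Gfi1b (1.21, 5.8e-11), Cebpb (0.62, 0.0329), Spi1 (0.36, 0.0014), Runx1 (0.36, 0.0302) and Myb (-0.41, 2.4e-06). For IFNg Cebpd passed (0.79, 0.0240). Cebpb in wild-type IFNg library 2, at 4.20 CPM, stood apart from the other 3 libraries of its group, at 3.96 to 3.99 CPM. It was the only such library among 72 groups of 4 values, where chance flags about 1 in 20.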

How the results depend on the processing

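Of 2457 recomputed values of the 9 genes in the 15 contrasts, 2329 kept their side of the threshold and, where called, their direction. A further 104 lost a call, 22 gained one and 2 called values changed sign. Changes of sign were not counted for values called in neither fit. Of 135 values 83 were called, and 59 of these held in every alternative. The 2 sign changes came with the structural RNA share as covariate: Myb in mutant against wild-type cells with Pam3CSK4 (0.071) and Myb with both agonists in wild-type cells (-0.052). That covariate moves with treatment in wild-type cells and with genotype under the agonists. With it the genes called numbered 3 of 6 for wild-type IFNg, 0 of 3 for wild-type Pam3CSK4 and 4 of 7 for both agonists. For the wild-type departure from additivity they numbered 0 of 1 (2 at an unadjusted p under 0.05). Over all genes, wild-type calls fell to 2794 from 5265 with IFNg, to 176 from 3277 with Pam3CSK4 and to 3639 from 6491 with both, and differences of response to 1213 from 3956 and 1380 from 2347, while departures in mutant cells numbered 422 against 276.

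The 1 call in the difference of the IFNg response became 0 in the fit of its own groups (4 at an unadjusted p under 0.05) and without both wild-type vehicle libraries, and ranged from 0 to 2 with single libraries left out. The wild-type departure call ranged from 0 to 1 with single libraries left out and was 0 without both vehicle libraries. All-gene calls for wild-type Pam3CSK4 ranged from 2048 (without wild-type vehicle library 4) to 4099, and were 2057 in the fit of the contrast's groups and 648 without both vehicle libraries, where Pam3CSK4 differences numbered 2444. All-gene departures in wild-type cells, 88 as reported, ranged from 44 (without wild-type combination library 1) to 1156 with single libraries left out, and were 20 without both vehicle libraries, 42 with the covariate, 154 in the fit of the contrast's groups, 172 without a filter and 393 in DESeq2. All-gene IFNg differences, 245 as reported, ranged from 136 to 382, with 127 in the fit of the contrast's groups and 369 in DESeq2. With CPM per kilobase in place of TPM the order was the same, but 8 instead of 4 neighbours stood apart in wild-type IFNg libraries. The causes were not tested.

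The replicate numbers did not pair libraries across groups: over 112 same-numbered pairs the mean correlation of deviations was -0.0044 (-0.405 to 0.427). A replicate block changed 1 of 135 calls, Myb with IFNg in mutant cells, which gained one (-0.093, edgeR adjusted p = 0.0443). Depth limits Cebpe in mutant cells, with as few as 11 counts.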
